A study of Rattus norvegicus with 18 samples.

Results

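Transcripts of 9 genes of peroxisomal fatty acid oxidation were examined in rat kidney: Pex11a, Crot, Acox2, Acox3, Ehhadh, Hsd17b4, Scp2, Eci2 and Eci3. A probe set, the unit of these arrays, is a group of short probes that reads 1 transcript sequence, and it was counted for a gene when the GEO platform annotation gave that gene as its only symbol. All 9 genes were found, with 15 probe sets out of 26202 on the arrays, controls left out (18178 with 1 symbol, for 10969 genes). Total kidney RNA came from 3 samples of the Dahl salt-sensitive (S) rat, an inbred strain that becomes hypertensive on salt, and from 3 samples of a congenic strain, the S strain with a chromosome 9 segment of a salt-resistant (R) strain put in by breeding. The segment carries a blood pressure quantitative trait locus, and the congenic rats otherwise share the S background. Each sample was read on 3 array types, here A, B and C, and 13 of the 15 probe sets were on type A, 1 (Eci3) on type B and 1 (Eci2) on type C. The labels used here give no diet, age or sex, and they do not state whether the numbered samples were separate animals, so each p-value speaks to the spread among the samples, part of which could be technical. In the GRCr8 assembly, 0 of the 9 genes lie on chromosome 9.

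Peroxisomes shorten the fatty acids that mitochondria handle poorly, namely very long, branched and dicarboxylic chains, and pass the shortened products on as carnitine esters. An acyl-CoA oxidase (Acox2 for bile acid precursors, Acox3 for branched chains) makes the double bond and gives off hydrogen peroxide. A multifunctional enzyme (Ehhadh or Hsd17b4) hydrates that bond and oxidises the result, and a thiolase (among them the long product of Scp2) cleaves the chain. Eci2 and Eci3 move double bonds of unsaturated chains into the position the multifunctional enzymes need, Crot loads the shortened chain onto carnitine, and Pex11a drives peroxisome division. In the kidney peroxisomes are abundant in the proximal tubule, and the nuclear receptor PPARA, whose binding site is a direct repeat of the hexamer AGGTCA, induces many of these genes.

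Of the 9 genes, Eci3 was the one with congenic and Dahl S signals that did not overlap, at 1.47-fold higher in the congenic kidneys. All congenic values were above all Dahl S values in 3.59% of all tested probe sets and in 1 of the 12 here. They were all below in 3.49% and in 0. Eci2, the neighbour and paralogue of Eci3, differed by 1.11-fold, and Ehhadh, Hsd17b4 and Scp2 (tested probe sets) differed by at most 1.12-fold. Acox2 read lower in congenic kidneys (2.03-fold in the means) with overlapping values, several of them near background. None of these passed the adjusted threshold of 0.05 in limma, a linear model fitted to all 15721 tested probe sets, which called 0 in either direction (0% higher and 0% lower). At an unadjusted p under 0.05, limma gave 1 of the 12 tested peroxisomal probe sets as higher and 0 as lower, against 1.17% and 1.32% of all tested probe sets (2.49% in either direction).

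Eci2 and Eci3 are adjacent protein-coding genes on chromosome 17, on the plus strand. Their promoters are shown because the neighbouring pair holds the 1 gene here with strains that did not overlap and a paralogue with strains that did. The sequences, from RefSeq with build GRCr8, run from 250 bases before to 50 after the annotated start. Eci2 lies at chr17:30075516-30075815 and Eci3 at chr17:30127175-30127474. Capitals mark GGGCGG (a GC box), CCAAT and AGGTCA, each searched on both strands, so that a match on the minus strand appears as its reverse complement.
Eci2: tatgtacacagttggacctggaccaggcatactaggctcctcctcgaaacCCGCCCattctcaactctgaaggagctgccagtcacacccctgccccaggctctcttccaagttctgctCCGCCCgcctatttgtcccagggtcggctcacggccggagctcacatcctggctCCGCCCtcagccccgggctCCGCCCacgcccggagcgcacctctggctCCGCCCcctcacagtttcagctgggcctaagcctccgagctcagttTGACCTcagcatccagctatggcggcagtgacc
Eci3: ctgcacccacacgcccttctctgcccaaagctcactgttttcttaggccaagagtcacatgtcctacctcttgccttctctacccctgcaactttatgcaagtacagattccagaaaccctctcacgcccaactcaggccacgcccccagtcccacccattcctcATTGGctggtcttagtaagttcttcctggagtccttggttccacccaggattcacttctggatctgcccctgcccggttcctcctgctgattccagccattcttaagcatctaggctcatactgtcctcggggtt
The Eci2 window held 5 GC boxes and 1 AGGTCA, and the Eci3 window held 0 of either and 1 CCAAT. Their GC contents were 64% and 54%. Shares were taken over 33469 promoters of the same length with no selection by gene type, so they are not a matched reference for the 9 genes. GGGCGG was in 33.1% of them and in 7 of the 9 genes here, CCAAT in 37.5% and 4 of 9, and AGGTCA in 16.2% and 2 of 9 (Eci2 and Hsd17b4). The full direct repeat AGGTCANAGGTCA, which contains AGGTCA, was in 0.0538% of all promoters and in 0 of the 9. These are matches of letters in short windows and were not related to binding in these kidneys. The sequences are those of the reference rat, and the alleles of the strains were not read here.

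Eci3 encodes an enoyl-CoA isomerase of the rodent peroxisome. Its signal was 1931, 2000 and 1929 in Dahl S samples 1, 2 and 3 and 2737, 2564 and 3402 in congenic samples 1, 2 and 3. The Dahl S values were tightly grouped (SD 0.030 on the log2 scale), the congenic values more spread (SD 0.21), and the lowest congenic value stood above the highest Dahl S value. The log2 difference, congenic minus Dahl S, was 0.56 (SE 0.16, 95% interval 0.19 to 0.93, n = 3 per strain), or 1.47-fold with an interval of 1.14 to 1.90. Its unadjusted limma p was 0.00690, which ranked 37 among the 15721 probe sets, and its adjusted p was 0.9997. Congenic values lay wholly above Dahl S values in 3.59% of all tested probe sets and wholly below in 3.49%, and in 1 and 0 of the 12 tested here. The difference was 0.44 to 0.64 with each sample left out in turn.

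Eci2, an isomerase of the same family that is also found in mitochondria, had signals of 298.2, 277.0 and 353.4 in Dahl S kidneys and 341.5, 333.5 and 352.7 in congenic kidneys. The congenic samples fell inside the Dahl S range. The log2 difference was 0.15 (SE 0.16, 95% interval -0.20 to 0.51, limma unadjusted p = 0.356), and it was 0.077 without Dahl S sample 2 and 0.25 without Dahl S sample 3. Whether the differences of Eci2 and Eci3 differ was not tested, because their probe sets lie on array types that were scaled separately.

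The acyl-CoA oxidase probe sets were dim. Acox2, the oxidase of bile acid precursors, read 51.1, 42.5 and 17.6 in Dahl S kidneys and 22.3, 9.9 and 20.6 in congenic kidneys. Dahl S samples 1 and 2 stood above all congenic values and Dahl S sample 3 lay within the congenic range. The log2 difference was -1.02 (SE 0.62, 95% interval -2.44 to 0.39, limma unadjusted p = 0.135). The filter level of type A, below which a mean signal was not tested, was 21.2. Dahl S sample 3 and congenic samples 2 and 3 were under it, and the mean of the 6 samples was 23.6, so the probe set was tested largely through its Dahl S signal and the size of its difference is uncertain. Without Dahl S sample 3 the difference was -1.49 (limma unadjusted p = 0.0434), and without congenic sample 2 it was -0.65. Acox3, the pristanoyl-CoA oxidase, read 11.3, 3.8 and 4.3 in Dahl S kidneys and 9.6, 6.8 and 5.5 in congenic kidneys. All 6 values were below the filter level and the strains overlapped, so Acox3 was not tested. It was the 1 gene of the 9 without a tested probe set.

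The multifunctional enzymes had intervals that included 0 and excluded a 2-fold change in their tested probe sets. Ehhadh, the enzyme of straight and dicarboxylic chains, read 110.4, 135.0 and 126.5 in Dahl S kidneys and 91.8, 114.7 and 127.7 in congenic kidneys. The strains overlapped, and sample 1 was the lowest of each. The log2 difference was -0.16 (SE 0.23, 95% interval -0.68 to 0.36, limma unadjusted p = 0.493). It was -0.030 and -0.27 with congenic sample 1 or 3 left out, and -0.099 with Dahl S sample 2 left out. Hsd17b4, the D-specific enzyme that also takes branched chains and bile acid precursors, had 4 probe sets. The rc_AI013834_s_at probe set read 500.1, 651.4 and 704.6 in Dahl S kidneys and 565.6, 544.5 and 750.3 in congenic kidneys, and its log2 difference was 0.0032 (SE 0.19, 95% interval -0.44 to 0.44). The remaining tested Hsd17b4 probe sets, made from a shared transcript sequence, overlapped between strains as well. S83279_at ranged from 484.7 to 547.1 in Dahl S and from 381.0 to 635.4 in congenic samples (-0.12, SE 0.21), and S83279_g_at from 378.5 to 581.8 and from 327.8 to 644.0 (-0.051, SE 0.27). The 3 probe sets differed in sign, each by less than 1 SE.

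The fourth Hsd17b4 probe set, rc_AI101743_s_at, behaved unlike the rest. It read 85.9 in Dahl S sample 1 and 99.9 in congenic sample 1, but 5.2 and 5.5 in Dahl S samples 2 and 3 and 7.6 and 4.8 in congenic samples 2 and 3. The samples numbered 1 were high in both strains and the remaining 4 were below the filter level, so its mean did not pass and it was not tested. In the other 3 Hsd17b4 probe sets the samples numbered 1 did not both stand above the rest. A control ratio moved with the sample number too: on type A the 3 prime to 5 prime signal ratio of beta-actin, a measure of RNA quality, was 1.48 and 1.51 in the samples numbered 1 (Dahl S, then congenic), 2.11 and 2.10 in those numbered 2, and 2.29 and 2.65 in those numbered 3. The same ratio of GAPDH on type A was 1.13, 1.43 and 1.38 in Dahl S samples 1, 2 and 3 and 1.03, 1.25 and 1.48 in the congenic samples, also lowest in the samples numbered 1. The part of RNA quality in the Hsd17b4 pattern was not tested. Over all 26202 probe sets, both samples numbered 1 lay above the other 4 in 19.5%, and among the 15 here in 3 (this Hsd17b4 probe set, Acox3 and a Pex11a probe set). Over the tested probe sets they lay above in 15.2% and below in 14.2%, and among the 12 tested here in 1 and 2 (Ehhadh and S83279_g_at below).

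**Figure D1:**
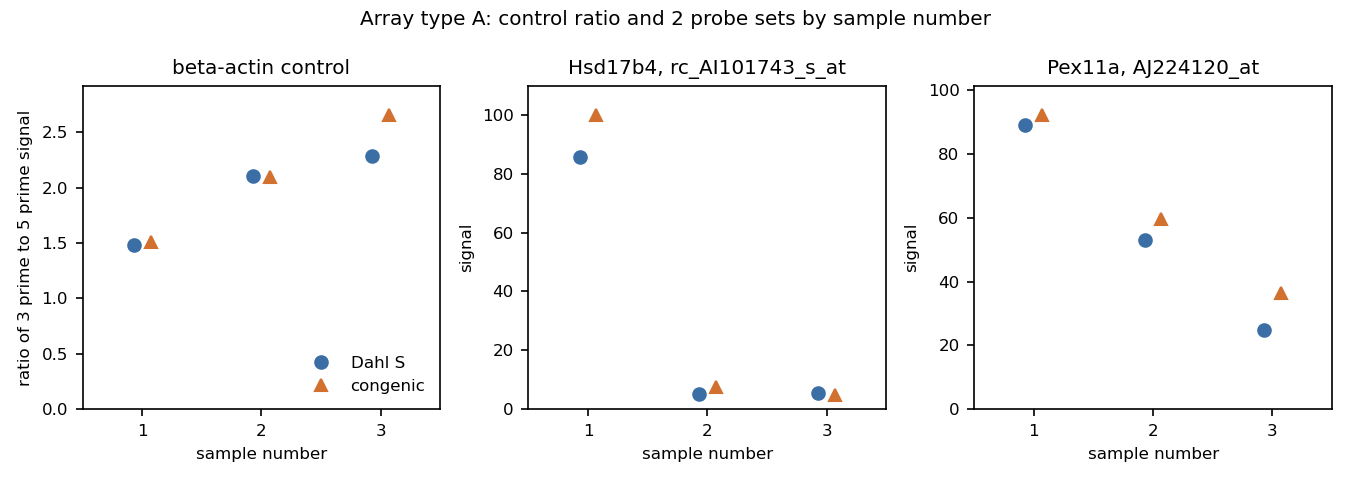
The beta-actin control ratio (no unit) and the signals of an Hsd17b4 and a Pex11a probe set on array type A are plotted against sample number, with circles for Dahl S and triangles for congenic, 1 point per sample. In both strains the samples numbered 1 have the lowest ratio (1.48 and 1.51) and the highest signals (85.9 and 99.9 for Hsd17b4).

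Scp2 encodes a peroxisomal thiolase for branched chains and, from the same gene, a sterol carrier protein. Its M62763complete_seq_at probe set read 144.3, 164.2 and 145.0 in Dahl S kidneys and 127.0, 139.9 and 186.0 in congenic kidneys. The congenic range enclosed the Dahl S range. The log2 difference was -0.019 (SE 0.22, 95% interval -0.51 to 0.48, limma unadjusted p = 0.933). The second Scp2 probe set, M58287_s_at, stayed between 2.8 and 17.6 in all 6 samples, below the filter level, and was not tested.

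Crot, the carnitine octanoyltransferase that prepares shortened chains for export, had a pair of tested probe sets that pointed in opposite directions. J02844_s_at read 82.4, 46.1 and 67.8 in Dahl S kidneys and 74.8, 129.2 and 69.2 in congenic kidneys. U26033_at read 67.6, 56.6 and 53.6 in Dahl S kidneys and 57.2, 24.8 and 71.4 in congenic kidneys. Congenic sample 2 was the highest of all in J02844_s_at and the lowest of all in U26033_at. The log2 differences were 0.46 (SE 0.35, limma unadjusted p = 0.230) and -0.34 (SE 0.44, limma unadjusted p = 0.459), and without congenic sample 2 they were 0.18 and 0.12. Both intervals included a 2-fold change (-0.35 to 1.27 and -1.34 to 0.66), so Crot was not measured well enough to bound its change at that size.

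Pex11a, the division factor of the peroxisome membrane, had 2 tested probe sets. The rc_AA892128_at probe set read 82.7, 73.6 and 92.7 in Dahl S kidneys and 97.9, 88.1 and 99.0 in congenic kidneys. Congenic sample 2 lay within the Dahl S range and congenic samples 1 and 3 above it, and the log2 difference was 0.20 (SE 0.23, 95% interval -0.33 to 0.73, limma unadjusted p = 0.416). AJ224120_at read 89.2, 53.0 and 24.7 in Dahl S samples 1, 2 and 3 and 92.1, 59.6 and 36.4 in congenic kidneys of those numbers. In each strain sample 1 was the highest and sample 3 the lowest, and the strains overlapped and differed by 0.26 (SE 0.54, 95% interval -0.98 to 1.50). The sign turned to -0.23 without Dahl S sample 3 and to -0.070 without congenic sample 1. On type A both control ratios were lowest in sample 1 of each strain. That of beta-actin was highest in sample 3 of each, but that of GAPDH was highest in sample 2 of Dahl S, and the part of RNA quality in this pattern was not tested.

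**Figure D2:**
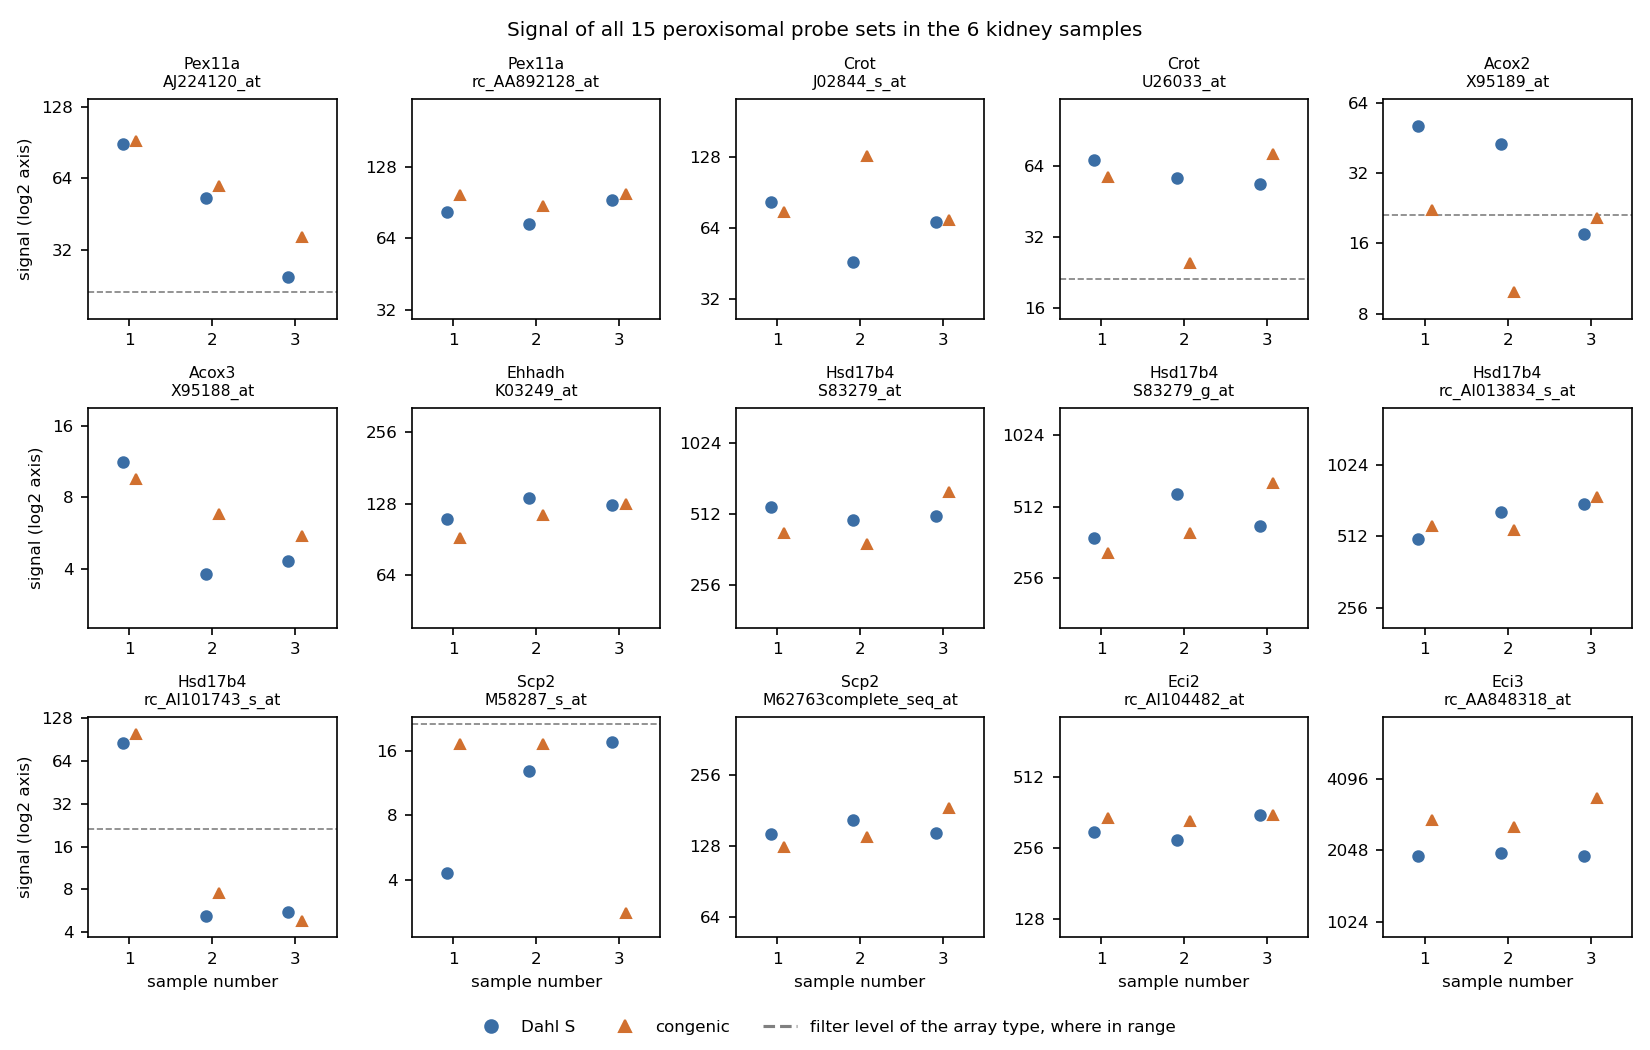
Each panel shows 1 probe set of the 9 genes, with the signal on a log2 axis against the sample number, circles for Dahl S, triangles for congenic and a dashed line at the filter level where it falls in the plotted range. The Eci3 panel is the one in which every congenic point (2564 to 3402) lies above every Dahl S point (1929 to 2000).

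Of the 12 tested probe sets, 6 had more signal in the congenic strain and 6 less, with a median log2 difference of -0.0077, and over all tested probe sets 49.5% had more and the median was -0.0035. With 1 probe set per gene, that of the highest mean signal, 5 of 8 genes had more signal in the congenic strain and the median was 0.078, against 48.9% and -0.0065 for all 8168 genes. Without Dahl S sample 3 the median over the 8 genes was 0.18 and without congenic sample 3 it was -0.0048. With any of the other 4 samples left out it was 0.040 to 0.13. When each gene was instead given the mean over all its tested probe sets, with no sample left out, the median was 0.021. The 95% interval lay inside a 2-fold change either way for 8 of the 12 probe sets, against 58% of all those tested. Those 8 cover Ehhadh, Hsd17b4, Scp2, Eci2, Eci3 and a Pex11a probe set. The wider intervals were those of Acox2, both Crot probe sets and Pex11a AJ224120_at.

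**Figure D3:**
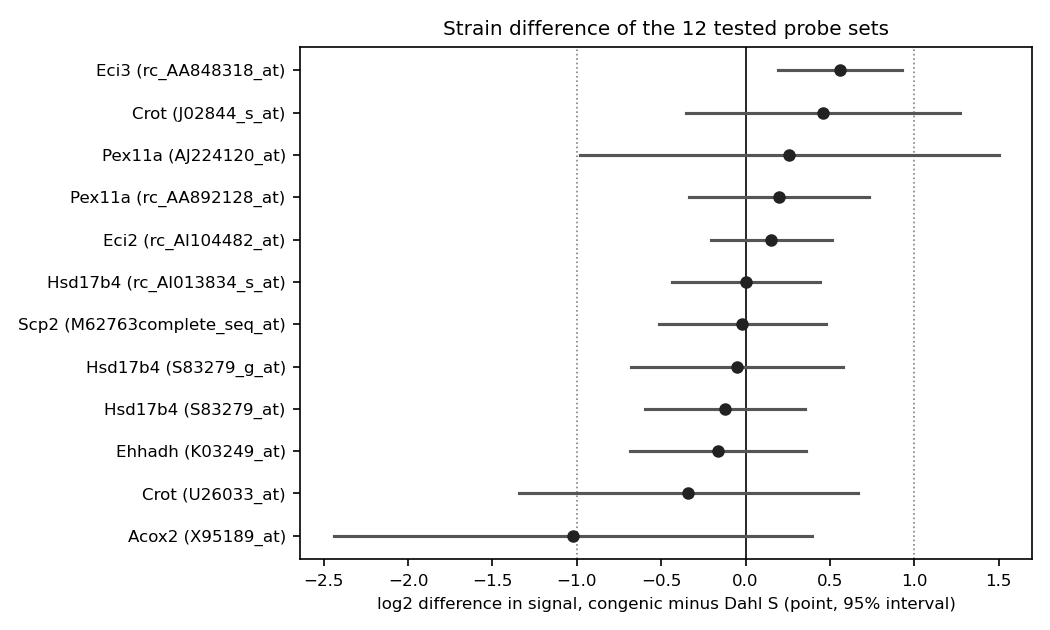
The log2 difference in signal, congenic minus Dahl S, is plotted with its 95% interval for the 12 tested probe sets, and dotted lines mark a 2-fold change. The Eci3 interval (0.19 to 0.93) is the one that leaves out 0.

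Other genes tied to the peroxisome, listed from textbook knowledge, were read the same way. The list includes some genes whose products are mainly mitochondrial. Of 77 listed genes 57 were on the arrays and 54 were tested, 32 higher and 22 lower, with a median log2 difference of 0.064. At an unadjusted limma p under 0.05 there were 1 higher and 1 lower, against 0.992% and 1.36% of all genes read by 1 probe set, and 0 passed the adjusted threshold. The gene with the smallest p was Acbd4, a peroxisomal membrane protein that binds acyl-CoA and tethers peroxisomes to the endoplasmic reticulum. Acbd4 read 166.7, 273.4 and 121.6 in Dahl S kidneys and 314.2, 387.2 and 343.3 in congenic kidneys, without overlap (0.97, SE 0.31, limma unadjusted p = 0.0105, adjusted p = 0.9997). Paox, the polyamine oxidase, read 182.0, 237.0 and 209.5 against 151.4, 147.2 and 115.4, all congenic values below the Dahl S values (-0.60, SE 0.26, limma unadjusted p = 0.0450, adjusted p = 0.9997). The unadjusted p of Paox stayed under 0.05 in 12 of 18 alternatives, and was 0.0577 under quantile normalization, 0.138 under median scaling and up to 0.142 (without Dahl S sample 2) with a sample left out. A further Pex6 probe set, D63673_g_at, named after its values were seen, was also under 0.05, with overlap (22.1, 85.4 and 24.2 against 81.8, 87.8 and 87.5, 1.26, SE 0.52, limma unadjusted p = 0.0405). Its Dahl S samples 1 and 3 were just above the filter level of 21.2. The brightest Pex6 probe set gave -0.0022 (SE 0.18), and D63673_at gave 0.080 (SE 0.31). Pxmp4, a peroxisomal membrane protein, read 771.7 to 929.8 against 924.0 to 1267 with overlap (0.34, SE 0.18), and its difference was 0.44 (limma unadjusted p = 0.0450) without congenic sample 1 and 0.21 without congenic sample 3.

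By role, the import, activation and acyl carrier genes were higher in 5 of 6 (median 0.21) and the last-step and auxiliary enzymes in 8 of 13 (median 0.060). Other matrix enzymes were higher in 11 of 18 (median 0.087) and assembly and division genes in 6 of 15 (median -0.0074). Of the genes of the first step and of alpha oxidation, 2 of 2 tested were higher, at 0.032 and 0.10. Catalase (Cat), which removes the hydrogen peroxide that the oxidases make, read 362.6, 578.4 and 619.8 in Dahl S kidneys and 457.3, 538.8 and 776.0 in congenic kidneys. The strains overlapped, sample 1 was the lowest of each strain, and the difference of 0.19 (SE 0.26) was below its SE. A second tested catalase probe set gave 0.0021 (SE 0.34).

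The receptors and coactivators that control these genes showed no common direction, with 7 of 14 higher, a median log2 difference of 0.0047 and 0 at an unadjusted limma p under 0.05, each gene read by its probe set of highest mean signal. Among their other tested probe sets 1 was under that p, the Ncoa1 probe set rc_AA799683_at, at 40.2, 54.1 and 40.9 in Dahl S and 67.4, 86.3 and 74.5 in congenic kidneys without overlap (0.76, SE 0.30, limma unadjusted p = 0.0320). The brighter Ncoa1 probe set gave -0.098 (SE 0.18). Ncoa1, a coactivator of nuclear receptors, was named after its values were seen. Ppara read 28.1, 31.4 and 40.9 in Dahl S kidneys and 57.4, 81.6 and 27.8 in congenic kidneys. Congenic samples 1 and 2 stood above all Dahl S samples and congenic sample 3 below them (0.62, SE 0.47, 95% interval -0.46 to 1.70). The difference was 1.05 (limma unadjusted p = 0.0395) without congenic sample 3 and 0.27 without congenic sample 2. Esrra, the oestrogen-related receptor that drives oxidative genes, read 463.6, 473.5 and 457.7 against 365.1, 436.1 and 389.1, without overlap (-0.23, SE 0.14, limma unadjusted p = 0.138), but a second tested Esrra probe set gave 0.17 (SE 0.41). Pparg read lower in congenic sample 1 (8.0) than in the other 5 samples (47.6 to 80.6), and its difference of -1.07 (SE 0.82) was -0.18 without that sample. A second tested Pparg probe set gave 0.23 (SE 0.44).

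Of 30 other genes listed as PPARA targets, 27 were on the arrays and 23 tested. Of these, 14 were higher and 9 lower, with a median of 0.032 and 0 at an unadjusted limma p under 0.05. The smallest p was that of Ucp3, a mitochondrial carrier, read by AF035943_at at 11.9, 8.1 and 76.5 in Dahl S kidneys and 67.6, 79.8 and 55.8 in congenic kidneys (1.78, SE 0.79, limma unadjusted p = 0.0525). Dahl S samples 1 and 2 were below the filter level and Dahl S sample 3 lay among the congenic samples. The Dahl S mean was thus below that level and the probe set was tested through its congenic signal, so the size of the difference is not reliable. A second Ucp3 probe set gave -0.81 (SE 0.62). Without Dahl S sample 3 no Dahl S value of AF035943_at was above the filter level, and without Dahl S sample 2 the difference was 1.15. The mitochondrial acyl-CoA dehydrogenases Acadm (0.24, SE 0.15) and Acadvl (0.29, SE 0.19) followed, with limma unadjusted p values of 0.164 and 0.165. Without congenic sample 3 they were 0.15 and 0.16, and without congenic sample 1 Acadm was 0.37 (limma unadjusted p = 0.0439). A second tested Acadvl probe set gave -0.12 (SE 0.31).

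**Figure D4:**
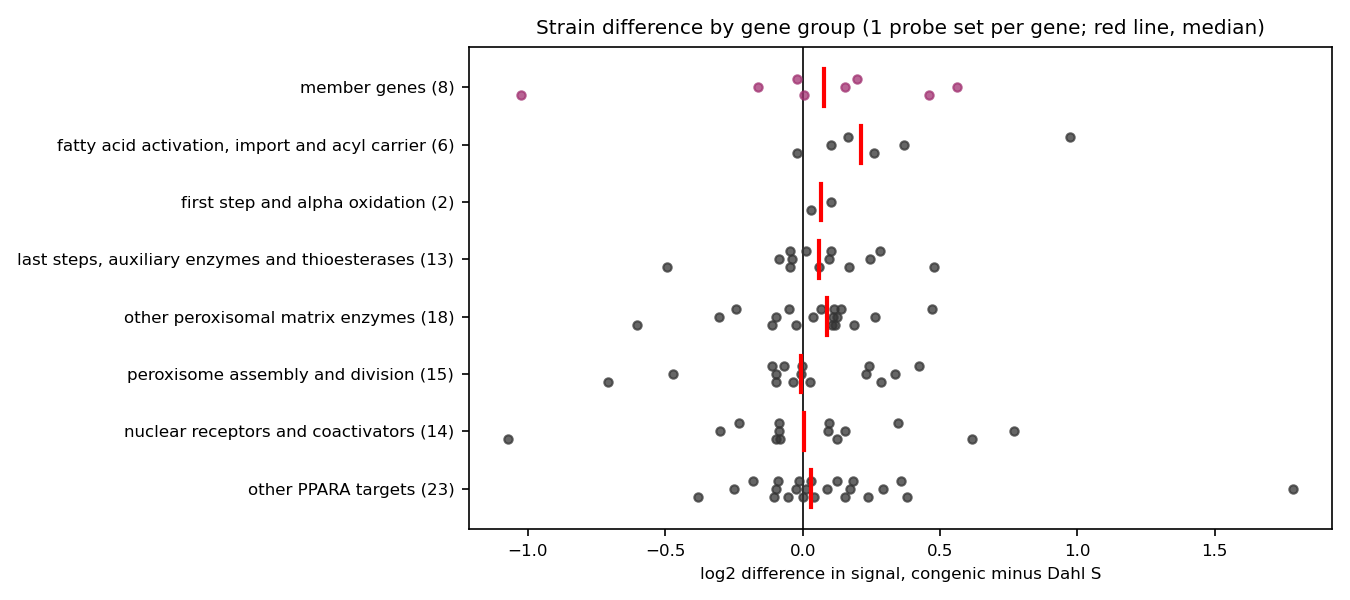
The log2 difference in signal, congenic minus Dahl S, is plotted for each tested gene (1 probe set per gene), by gene group with the number of genes in parentheses, and a red line marks each median. The group medians lie between -0.0074 and 0.21, and the member genes run from -1.02 (Acox2) to 0.56 (Eci3).

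Cell type markers gave the setting of these values. In bulk tissue, fewer cells of a type and less RNA per cell cannot be told apart. Proximal tubule markers, the cells richest in peroxisomes, were higher in 21 of 24 tested genes (median 0.14), and their summed signal was 85714 to 90121 in Dahl S kidneys and 89620 to 103778 in congenic kidneys, with 0 of the 24 below the filter level in all samples. That summed signal overlapped between strains where Eci3 did not, and its part in the Eci3 difference was not tested. Markers of other tubule segments were higher to a similar extent: those of the thick limb and distal tubule in 7 of 8 (median 0.14) and those of the collecting duct in 7 of 9 (median 0.12), with collecting duct sums of 4157 to 4483 in Dahl S and 4502 to 5152 in congenic kidneys. Leukocyte markers were lower in 11 of 13 tested genes, with summed signals over 18 genes of 4457 to 5635 and 4137 to 4178, and stroma and smooth muscle markers in 9 of 10, with summed signals over 12 genes of 5963 to 7298 and 4728 to 5210. The leukocyte, stroma and collecting duct sums did not overlap, and the parts of these cell types in the Eci3 difference were not tested. Blood markers were lower in 5 of 6 tested genes. Their summed signals over 7 genes were 12593, 14911 and 52236 in Dahl S samples 1, 2 and 3 and 10118 to 19138 in congenic kidneys. Dahl S sample 3 thus had the highest blood sum, and its part in the results that moved without that sample was not tested. Of the liver markers, 5 of 9 (Apoa2, Fgb, Tat, Cyp2c11 and Cyp7a1) were below the filter level in all 6 samples, with summed signals of 110.7 to 198.9 in Dahl S and 111.4 to 230.7 in congenic kidneys. Of the adrenal markers, 4 of 9 (Star, Cyp11b2, Cyp17a1 and Dbh) were below it in all samples, with sums of 329.3 to 445.1 and 389.5 to 539.6. Of the fat markers, 4 of 8 (Adipoq, Plin1, Fabp4 and Cfd) were below it in all samples, with sums of 1025 to 1388 and 1012 to 1422. The remaining genes of these 3 lists were above the filter level in at least 1 sample.

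Among the 12 tested probe sets of the 9 genes, that of Acox2 varied most over the 6 samples (SD 0.87 on the log2 scale). The 3 genes with the closest profiles, out of 8167 compared by the root mean square difference of centred log2 signals over 6 samples, were Wnt2 (0.17), a secreted signalling protein, Recql (0.23), a DNA helicase, and Tyrobp (0.25), an adaptor of myeloid cells. Tyrobp read 250.4, 184.1 and 54.3 in Dahl S kidneys and 99.6, 48.8 and 72.2 in congenic kidneys, with the same Dahl S samples high as in Acox2. Wnt2 and Recql were dimmer, at 93.3, 62.1 and 29.9 against 38.9, 19.7 and 44.1 and at 97.3, 86.0 and 33.6 against 42.1, 13.2 and 29.6. In congenic sample 2 both were below the filter level of every array type, so part of their profile lay near background. These genes were picked as the closest of 8167 over 6 samples, and a shared cause was not tested.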

How the data were processed

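The authors' deposited tables hold a linear intensity for each probe set, and the values show that every array had been scaled to a trimmed mean (2% off each end) of 150.1 to 150.2. How probes were summarised is not stated in the sources. Median signals were 34.8 to 45.9, 60.4 to 78.5 and 61.1 to 75.6 on types A, B and C. Values below the 10th percentile of an array type (3.1, 6.8 and 4.9) were raised to it and log2 was taken. The 59 controls of each type were left out, and probe sets with a mean log2 signal below the 40th percentile of their type (21.2, 39.3 and 37.7) were not tested. The strain comparison used lmFit and eBayes of limma 3.58.1 (R 4.3.3), with an intensity trend and 1 fit per type. Benjamini-Hochberg adjustment was made over all types. The fit was also run on simulated data with independent noise in each sample. That simulation did not cover the pattern shared by the samples numbered 1. The number of arrays limits the precision.

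Members and lists were chosen with earlier results of these data known. The named genes are all members, the 3 genes of each other list with the smallest p, Cat, Ppara and the 3 closest profiles; another gene that the rule names is not analysed here. Marker genes are named where their level stands beside a result. Plots used matplotlib 3.10.9 (Python 3.11.15). The alternatives were other floors, filters, normalizations and variance models, the sample number as a term, each sample left out and adjustment within array types. For the median over genes, the mean of all tested probe sets of a gene was a further alternative.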

Additional observations from a re-analysis of the deposited data

How the results depend on the processing

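Under all 18 alternatives limma called 0 probe sets, 0 of the peroxisomal probe sets and 0 of the other peroxisomal genes, and Eci3 kept its direction (0.41 under quantile normalization to 0.66 under median scaling) and an unadjusted p under 0.05 (0.00379 to 0.0404). Deviations from the strain means correlated at 0.45 between the samples numbered 1, which correlated at -0.30 to -0.20 with differently numbered samples. The correlations were 0.077 and 0.18 for numbers 2 and 3, no clearer than 0.15 between 2 and 3, so the numbers were not taken to pair all samples. Because each strain was centred on its own mean, these correlations are tied to each other. The negative values follow from the 0.45 and are not separate observations. With the replicate block 0 probe sets passed, 819 had an unadjusted limma p under 0.05 where 391 did without it, the count of peroxisomal probe sets at that level stayed 1, and the median over the 8 genes stayed 0.078. Leaving out each sample in turn gave 1 to 2 peroxisomal probe sets at that level (the second was Acox2, without Dahl S sample 3) and a median of -0.0048 to 0.18. Several differences changed sign, and not only those closest to 0. Without both samples numbered 1 the values were 0.027 for Hsd17b4 S83279_g_at, -0.084 for rc_AI013834_s_at and 0.064 for Scp2, and under median scaling Scp2 was 0.0047. With single samples left out the ranges were -0.23 to 0.69 (Pex11a AJ224120_at), -0.65 to 0.12 (Crot U26033_at), -0.34 to 0.025, -0.33 to 0.16 and -0.14 to 0.10 (Hsd17b4 S83279_at, S83279_g_at and rc_AI013834_s_at), -0.18 to 0.096 (Scp2) and -0.056 to 0.35 (Cat). The cause of these changes was not tested. The filter at the 60th percentile left out Acox2, Crot U26033_at and Pex11a AJ224120_at.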
